A study of Mus musculus with 18 samples.

Results

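The genes described here were Trem2, Tyrobp, Igf1, Cd9, Spp1, Lpl, Itgax, Clec7a, Gpnmb and Axl, a set known from disease-associated microglia. They were taken by symbol from the deposited count table, where each matched 1 row, and they made up 10 of its 55487 gene identifiers. RNA sequencing had been done on BV2 cells, an immortalised mouse microglial line grown in medium with serum, after separation of a nuclear and a cytoplasmic fraction. The groups were untreated cells (0 h) and cells given 10 µM oxyhemoglobin, the oxygen-carrying blood pigment, for 12 h or 24 h, with 3 libraries for each of the 6 combinations and 18 in all. The labels do not say whether the 3 libraries of a group came from separate cultures, and the treatment label is worded as if 1 replicate was treated for each time, so what each mean covers beyond 3 libraries is not known. The deposited table held 1 mean per group, so each value below is the authors' mean over 3 libraries, with no spread between libraries and no test over them. No untreated culture at 12 h or 24 h was among the samples, so exposure and time in culture cannot be told apart. Fewer expressing cells and less RNA per cell cannot be told apart in such bulk samples either.

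TREM2 is a lipid-sensing receptor of microglia and other macrophages that signals through the adaptor TYROBP, also called DAP12, which recruits the kinase SYK. In damaged brain tissue this pathway supports a state in which microglia take up lipid and debris and make more of the lipase LPL, the integrin subunit ITGAX (CD11c), the lectin CLEC7A, the glycoprotein GPNMB and the secreted factors SPP1 (osteopontin) and IGF1. Many of these genes are also used by other macrophages that handle lipid.

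The upstream sequences of 3 members are shown because their RNA was lower after oxyhemoglobin in at least 1 fraction and because each window holds a motif of a factor active in macrophages. Each is the 250 bases before the RefSeq start on GRCm38.p6, written 5′ to 3′ on the strand of the gene. Capitals mark matches to TGANTCA, a loose form of the AP-1 site that allows any middle base, or to GAGGAAG, a core of PU.1 sites. Both strands were searched, so that CTTCCTC is the second motif read on the other strand. The Trem2 window lies at chr17:48346151-48346400 (plus strand), the Itgax window at chr7:128129300-128129549 (plus strand) and the Axl window at chr7:25788734-25788983 (minus strand).
Trem2: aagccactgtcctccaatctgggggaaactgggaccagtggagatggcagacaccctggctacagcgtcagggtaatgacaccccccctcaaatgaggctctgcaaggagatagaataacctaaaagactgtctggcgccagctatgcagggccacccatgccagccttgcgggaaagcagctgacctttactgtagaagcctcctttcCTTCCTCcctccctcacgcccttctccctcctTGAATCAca
Itgax: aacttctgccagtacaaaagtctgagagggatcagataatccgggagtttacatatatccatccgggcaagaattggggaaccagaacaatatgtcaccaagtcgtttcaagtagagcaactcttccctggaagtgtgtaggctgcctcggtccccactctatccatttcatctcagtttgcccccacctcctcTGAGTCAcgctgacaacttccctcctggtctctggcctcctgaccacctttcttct
Axl: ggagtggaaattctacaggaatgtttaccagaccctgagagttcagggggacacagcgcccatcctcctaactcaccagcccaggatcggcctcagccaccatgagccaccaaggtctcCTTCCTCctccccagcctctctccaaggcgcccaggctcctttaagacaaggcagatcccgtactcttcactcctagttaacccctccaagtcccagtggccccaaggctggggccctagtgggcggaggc
Letters matching TGANTCA were present for 3 of the 8 members with a RefSeq window. They read TGAATCA for Trem2 (9 to 3 bases before the start) and Igf1 (37 to 31 bases before). For Itgax they read TGAGTCA (56 to 50 bases before). Of all 32851 windows of this length, 6.75% held a match to TGANTCA. The PU.1 letters were present in the windows of Trem2 (41 to 35 bases before the start), Igf1 (60 to 54), Axl (131 to 125) and Spp1 (113 to 107), against 10.6% of all windows. The letters TATAAA were found for Spp1 only, 211 to 206 bases before the start, against 12.4% of all windows. The CACGTG box bound by MITF and TFEB was found for 0 of the 8 members, against 6.02% of all windows. All 250 bases of the Igf1 window lie in exons of longer Igf1 transcripts of GENCODE M21, so it is not shown. These matches describe letters in the windows. No binding was measured.

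The counts of the 3 libraries of a group summed to between 14652566 and 16031875 in the nucleus and between 16537318 and 22379595 in the cytoplasm. The most abundant nuclear gene took 16.3% to 22.1% of the nuclear counts. Levels are given as mean counts per group and as normalised CPM, which are counts per 1000000 with depths adjusted by TMM (trimmed mean of M-values) within each fraction. A gene was compared when at least 1 group of the fraction had a CPM equal to 10 counts in a group of median depth. It was called higher or lower when the ratio was at least 2-fold and its 95% counting interval left out 0 on the log2 scale. These intervals cover counting error only, and PCR copies and differences between cultures lie outside them. Macrophage and microglia markers summed to 514 to 715 normalised CPM in the nuclear groups and 334 to 405 in the cytoplasmic groups, and 0 to 2 of the 12 were at 0. Ptprc (CD45) was the highest of them in the nucleus and Spi1 (PU.1) in the cytoplasm, while the microglial markers P2ry12, at 0 to 0.341, and Cx3cr1, at 0.147 to 5.21, were near or under 5 CPM in each group. Lists for neurons, astrocytes, oligodendrocytes, endothelial cells, fibroblasts, erythroid cells and other leukocytes summed to between 0.0453 and 15.1 CPM. In the cytoplasm the fibroblast list was at 6.93 CPM at 12 h and at or under 1.30 in the other 5 groups, and the endothelial list was at 1.77, 6.81 and 6.21 CPM at 0, 12 and 24 h, led by Kdr. In the nucleus the endothelial list was at 6.48, 8.43 and 10.97 CPM and the neuron list, led by Gad1, at 15.1, 6.23 and 8.52. The part of these lists in the results was not tested.

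Summed over the 10 genes, normalised CPM went from 6544 at 0 h to 3483 at 12 h and 3113 at 24 h in the cytoplasm, and from 5376 to 3915 and 4180 in the nucleus. Most of this sum came from Gpnmb and Lpl. In the nucleus 6 of 9 members compared were lower at 12 h, against 6.64% of the 17295 genes compared, and 6 of 9 were lower at 24 h, against 5.75%. In the cytoplasm 5 of 8 were lower at 12 h, against 8.99% of 11751 genes, and 6 of 8 at 24 h, against 6.71%. No member was higher than at 0 h in either fraction, where 7.92% and 7.88% of nuclear genes and 11.7% and 10.4% of cytoplasmic genes were called higher at 12 h and 24 h. The median log2 ratio of the members compared was −1.29 and −1.07 in the nucleus and −1.45 and −1.61 in the cytoplasm, while the medians of all genes compared lay between −0.06 and 0.00. The members were chosen with earlier results of these data known, and the part of that choice in these counts was not tested. These counts are not over all 10 genes. Spp1 was too low in both fractions and Clec7a in the cytoplasm. Tyrobp, Clec7a and Axl entered the nuclear comparison, and Tyrobp the cytoplasmic one, only through their level at 0 h, so that they could differ only downward. Axl was above the limit in the cytoplasm at 0 h and 12 h but not at 24 h, so that its 24 h ratio could also differ only downward. The medians above include all of these one-way ratios. The 6 members above the limit at every time were Trem2, Igf1, Cd9, Lpl, Itgax and Gpnmb, and of these 3 were lower in the nucleus at 12 h and 3 at 24 h, and 4 in the cytoplasm at each time. The 12 h and 24 h comparisons share their 0 h groups. Scaling by total counts in place of TMM shifted the nuclear median over all genes by −0.22 and −0.30 at 12 h and 24 h, and the deposited TPM moved those of the cytoplasm by −0.47 and −0.35. The share of called genes that were higher was 54.4% and 57.8% in the nucleus, against 31.9% and 27.5% with total counts and 31.7% and 12.8% with TPM, and 56.5% and 60.7% in the cytoplasm, against 15.5% and 21.6% with TPM. The ratios of the members compared were below 0 under each of these scalings.

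**Figure D1:**
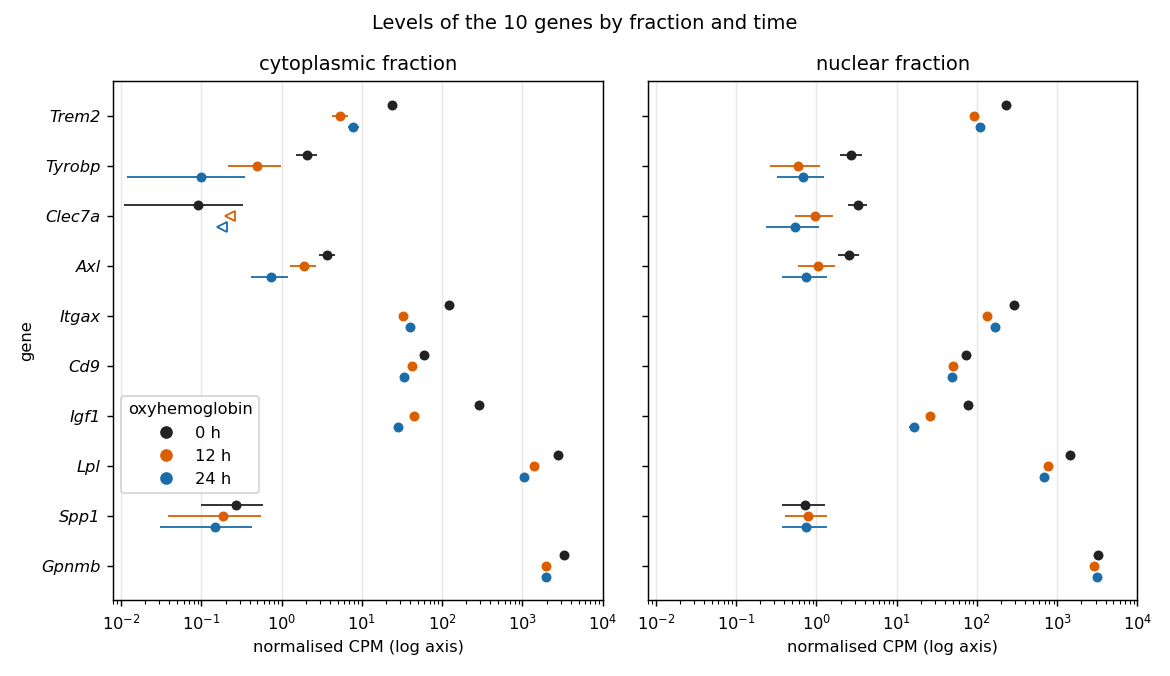
Normalised CPM of the 10 genes (log axis) in the cytoplasmic (left) and nuclear (right) groups at 0, 12 and 24 h; bars are 95% counting intervals of the summed reads of 3 libraries, and open triangles mark the upper end of the interval where 0 reads were counted. Gpnmb and Lpl lie at 684 CPM or above in every group, and Igf1 goes from 287 to 27.9 CPM in the cytoplasm.

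Igf1 encodes insulin-like growth factor 1, a secreted growth factor that acts on neurons, oligodendrocytes and microglia. Igf1 (ENSMUSG00000020053) lies on chromosome 10 from 87858265 to 87937042 on the plus strand of GRCm38, with 8 annotated transcripts. Mean counts in the cytoplasm were 2113 at 0 h, 237 at 12 h and 190 at 24 h, or 287, 44.5 and 27.9 normalised CPM. The untreated group stood far above both treated groups. Cytoplasmic Igf1 was 6.45-fold lower at 12 h (log2 ratio −2.69, interval −2.80 to −2.58) and 10.3-fold lower at 24 h (−3.36, interval −3.49 to −3.24). At 24 h only 12 of the 11751 cytoplasmic genes compared had a lower ratio, which put Igf1 at rank 13 from the bottom. In the nucleus the mean counts were 427, 134 and 80.3, or 77.7, 26.1 and 16.4 CPM. Nuclear Igf1 was 2.98-fold lower at 12 h (−1.57, interval −1.74 to −1.41) and 4.73-fold lower at 24 h (−2.24, interval −2.45 to −2.04). From 12 h to 24 h the log2 ratio was −0.67 in both fractions, under 2-fold.

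Trem2 (ENSMUSG00000023992; chromosome 17, 48346401 to 48354147, plus strand) had mean counts of 1249, 471 and 539 in the nucleus and 175, 28.7 and 53.3 in the cytoplasm at 0, 12 and 24 h. As normalised CPM these were 227, 91.7 and 110 in the nucleus and 23.8, 5.37 and 7.82 in the cytoplasm. Both treated groups lay under the untreated group in each fraction, with the 12 h group the lowest. The log2 ratio to 0 h was −1.31 (interval −1.40 to −1.22) at 12 h and −1.04 at 24 h in the nucleus, and −2.15 (interval −2.49 to −1.82) and −1.61 in the cytoplasm, all past the 2-fold limit. From 12 h to 24 h it was 0.27 in the nucleus and 0.54 in the cytoplasm, neither of which passed it, and the nuclear value was −0.04 on the TPM scale.

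Tyrobp (ENSMUSG00000030579; chromosome 7, 30413760 to 30417585, plus strand), the adaptor of TREM2, was counted at 15.0, 3.00 and 3.33 reads per library on average in the nucleus and 15.3, 2.67 and 0.667 in the cytoplasm. These are few reads, 45 and 46 over the 3 libraries at 0 h and 2 in the cytoplasm at 24 h. The log2 ratio was −2.22 at 12 h (interval −3.44 to −1.17) and −2.0 at 24 h (interval −3.15 to −0.99) in the nucleus. In the cytoplasm it was −2.06 at 12 h (interval −3.35 to −0.96) and −4.41 at 24 h (interval −7.50 to −2.48), and the width of the last interval reflects its 2 reads.

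Clec7a (ENSMUSG00000079293; chromosome 6, 129461591 to 129472779, minus strand) encodes dectin-1, a receptor for fungal β-glucan, and is annotated as a polymorphic pseudogene. Its mean counts were 18.0, 5.00 and 2.67 in the nucleus. In the cytoplasm 2 reads were found over the 3 libraries at 0 h and 0 at 12 h and at 24 h. The floor of 3 reads stood at 0.187 and 0.147 CPM in these groups, and the counting intervals of 0 reads, drawn in the plot of levels, reached 0.230 and 0.180 CPM. Nuclear Clec7a was lower at 12 h (log2 ratio −1.75, interval −2.68 to −0.90) and at 24 h (−2.58, interval −3.87 to −1.50), and no cytoplasmic ratio is given. On the log2(TPM + 1) scale, which understates changes of low genes, neither passed the limit (−0.79 and −0.98).

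Axl (ENSMUSG00000002602; chromosome 7, 25757273 to 25788705, minus strand) encodes a receptor tyrosine kinase that binds GAS6 on dying cells. Mean counts were 14, 5.33 and 3.67 in the nucleus and 27.3, 10.0 and 5.00 in the cytoplasm, a decreasing order in both fractions. The nuclear log2 ratio was −1.29 at 12 h (interval −2.22 to −0.43) and −1.76 at 24 h, and on the log2(TPM + 1) scale −0.32 and −0.39, short of the limit. In the cytoplasm it was −0.99 at 12 h, just short of the 2-fold limit (−1.01 with total-count scaling), and −2.34 at 24 h (interval −3.24 to −1.53), against −0.70 as log2(TPM + 1). From 12 h to 24 h, 2 of 8 members were called lower in the cytoplasm, against 1.89% of genes, and 0 of 9 in the nucleus, against 1.19%. The 2 were Axl (−1.35) and Tyrobp (−2.35, interval −5.63 to −0.03, from 8 and 2 reads), which were compared only through their levels at earlier times. Of the 6 members above the limit at every time, 0 were lower between these times in either fraction.

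Itgax (ENSMUSG00000030789; chromosome 7, 128129547 to 128150657, plus strand), the CD11c subunit of a β2 integrin, had 290, 132 and 170 normalised CPM in the nucleus and 121, 32.4 and 39.2 in the cytoplasm. The mean counts behind these were 1594, 679 and 832, and 889, 173 and 267. As with Trem2, the 12 h group was the lowest in both fractions. Its log2 ratio to 0 h was −1.13 at 12 h and −0.77 at 24 h in the nucleus, where the second did not reach 2-fold, although with total-count scaling it did, at −1.07. In the cytoplasm it was −1.90 (interval −2.03 to −1.76) and −1.62 (interval −1.74 to −1.51).

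Cd9 (ENSMUSG00000030342; chromosome 6, 125460266 to 125494791, minus strand) encodes a tetraspanin, a membrane organiser. Its levels were 73.8, 50.5 and 49.3 normalised CPM in the nucleus and 59.5, 42.1 and 33.4 in the cytoplasm, from mean counts of 225 to 438 over the 6 groups. The untreated group was the highest in both fractions. None of its log2 ratios to 0 h passed the limit, at −0.55 and −0.58 in the nucleus and −0.50 and −0.83 in the cytoplasm, though their counting intervals left out 0. On the deposited TPM scale the ratios were past 2-fold in the cytoplasm at both times (−1.21 and −1.33) and in the nucleus at 24 h (−1.16).

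Lpl (ENSMUSG00000015568; chromosome 8, 68880491 to 68907448, plus strand) encodes lipoprotein lipase, which releases fatty acids from triglyceride-rich lipoproteins. It was at 2777, 1387 and 1038 normalised CPM in the cytoplasm and 1434, 762 and 684 in the nucleus, from 3348 to 20444 mean counts. Levels decreased from 0 h to 12 h to 24 h in both fractions. Lpl was 2.0-fold lower at 12 h and 2.68-fold lower at 24 h in the cytoplasm (log2 ratio −1.0, interval −1.02 to −0.98, and −1.42). In the nucleus the log2 ratio was −0.91 at 12 h, under the limit, and −1.07 at 24 h, just past it. Total-count scaling put the nuclear value at 12 h past the limit as well, at −1.13.

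Gpnmb (ENSMUSG00000029816; chromosome 6, 49036546 to 49070929, plus strand) encodes a membrane glycoprotein of lipid-laden macrophages controlled by MiT/TFE factors. Of the members compared, it had the smallest nuclear changes. Its nuclear level was 3265, 2849 and 3147 normalised CPM, which spanned under 1.15-fold. Its cytoplasmic level was 3270 at 0 h, 1969 at 12 h and 1966 at 24 h. The nuclear log2 ratio was −0.20 at 12 h and −0.05 at 24 h, and the cytoplasmic ratio was −0.73 at both times. As for Cd9, no ratio to 0 h reached the limit. The deposited TPM put the cytoplasmic ratios past it, at −1.47 and −1.26.

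Spp1 (ENSMUSG00000029304; chromosome 5, 104435118 to 104441050, plus strand), the gene of osteopontin, was not compared. It had 12, 12 and 11 reads over the 3 nuclear libraries at 0, 12 and 24 h, and 6, 3 and 3 over the cytoplasmic libraries. No difference was detectable at this depth.

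**Figure D2:**
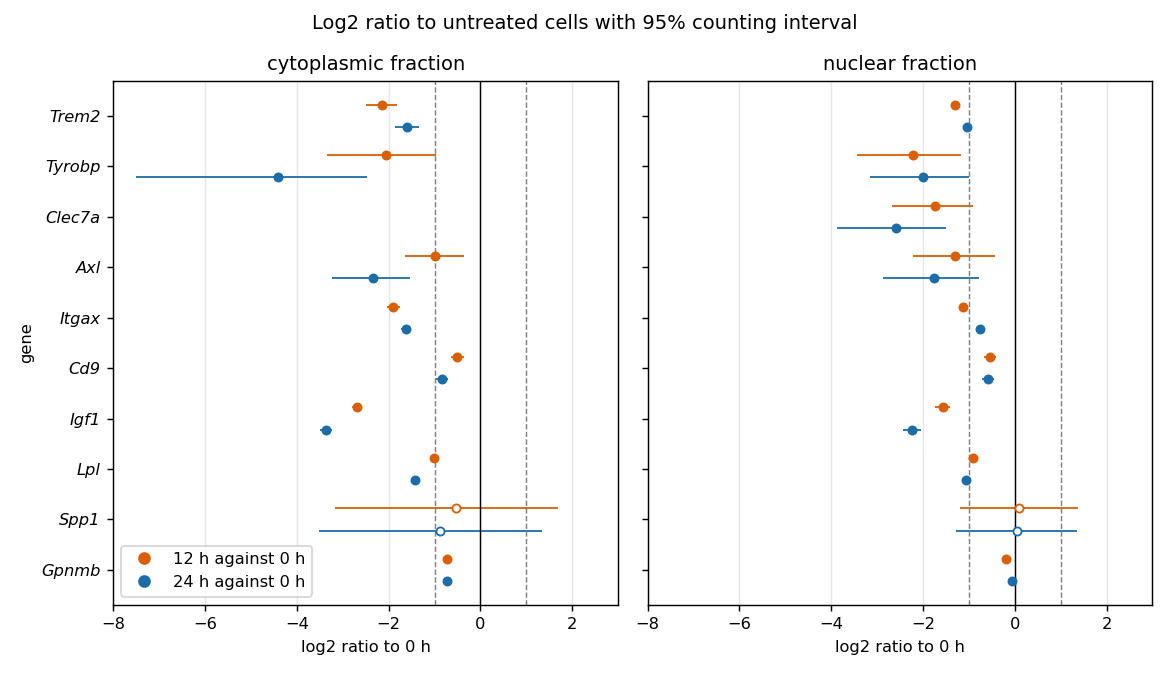
Log2 ratio to 0 h at 12 h (orange) and 24 h (blue) for each gene in the cytoplasmic (left) and nuclear (right) fraction, with 95% counting intervals; open points are genes too low to be compared, dashed lines mark 2-fold, and cytoplasmic Clec7a has no ratio. Igf1 lies at −2.69 and −3.36 in the cytoplasm with narrow intervals, while Tyrobp, Clec7a and Axl have intervals wider than 1 log2 unit in every ratio shown.

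**Figure D3:**
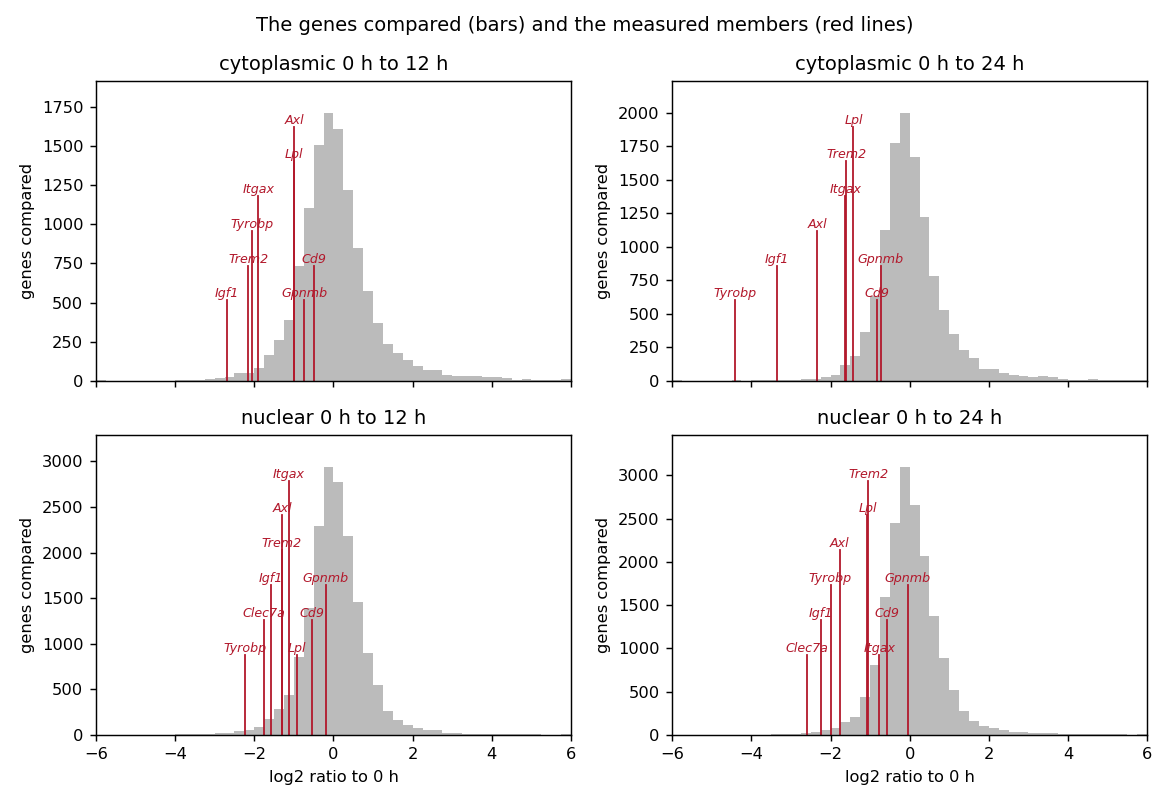
Number of genes by log2 ratio to 0 h (grey bars, 0.25 wide, values beyond 6 placed in the end bars) for cytoplasmic (top) and nuclear (bottom) RNA at 12 h (left) and 24 h (right); red lines mark the members compared and their heights carry no value. The members lie left of 0 in each panel, with Gpnmb nearest to 0 in the nucleus at −0.20 and −0.05.

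The number of reads per gene varied with the share of its exonic bases annotated to a single transcript. Other differences between the genes were not held fixed. Among protein-coding genes with several transcripts, 87.2% of 955 with under 5% of their exonic bases in a single transcript had under 1 count in the untreated cytoplasm, against 31.1% of 2024 genes with at least 80%. The sources used here do not give how reads shared by several transcripts were counted. The single-transcript share was 4.61% for Spp1, 13.7% for Clec7a, 14.7% for Tyrobp and 15.7% for Axl, the 4 members with the fewest reads. It was 66.4% to 83.9% for the other 6. Its part in their low counts was not tested, and a low level of these 4 genes is therefore not shown as low expression. Ratios of 1 gene over time use the same bases in each group, but whether the transcripts in use changed over time was not tested. For Trem2, 95.8% of the single-transcript bases lie in 1 retained-intron transcript, so its ratios may not describe its coding transcripts. Cd9 and Spp1 also share exonic bases with the overlapping genes Gm26728 and Gm42793, with 89.3% and 81.3% of their bases free of other genes, and reads from these cannot be assigned without the strand setting.

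**Figure D4:**
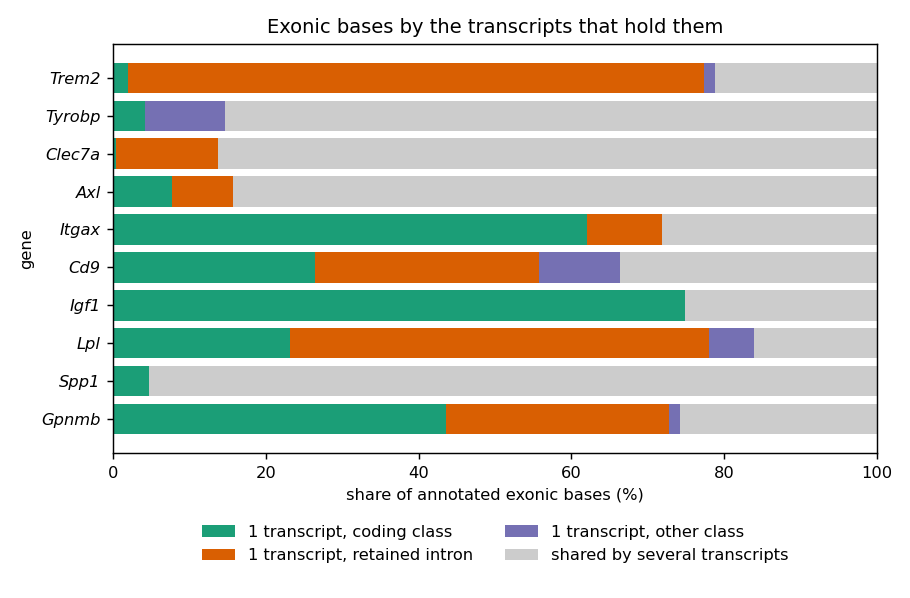
Share of each gene's annotated exonic bases (%) that lies in 1 transcript of a coding class (green; for Clec7a this includes its polymorphic pseudogene transcript), of a retained-intron class (orange) or of another class (purple), or that several transcripts share (grey), from GENCODE M21 on GRCm38. Grey makes up more than 80% of Spp1, Clec7a, Tyrobp and Axl, and orange more than 70% of Trem2.

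Per kilobase of exonic bases, Gpnmb was the highest of the 10 genes in all 6 groups, at 502 CPM per kilobase in the untreated cytoplasm and 501 in the untreated nucleus, and Lpl was second, at 265 and 137. In the untreated cytoplasm Cd9 (29.1), Igf1 (29.0) and Itgax (25.1) followed close together, and with no spread between libraries their order is not settled. Trem2 was at 4.82 there, Tyrobp at 3.12, and Axl, Spp1 and Clec7a were under 1. The order of the low genes depended on the length used. Per kilobase of single-transcript bases, a length chosen after seeing the data, Tyrobp was at 21.3 there, above Trem2 at 6.11. On that scale Axl was at 4.70, Spp1 at 3.57 and Clec7a at 0.251. In the untreated nucleus Itgax (60.3) and Trem2 (45.9) came before Cd9 (36.1), and Igf1 was at 7.84 and Tyrobp at 4.09. With single-transcript bases as the length, Tyrobp was at 27.8 in that group, above Igf1 at 10.5. After 24 h Igf1 was at 2.82 in the cytoplasm, under Cd9 at 16.3.

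The nuclear-to-cytoplasmic ratio asks in which fraction each RNA made up more of the reads. With all 6 groups scaled together, Trem2 and Clec7a were higher in the nucleus at 0 h, 2 of 9 members, against 47.5% of 17902 genes. Igf1, Lpl, Gpnmb and Axl were lower there, 4 of 9, against 32.7%. At 12 h these counts were 2 higher and 3 lower (46.4% and 29.3% of genes), and at 24 h 1 higher and 2 lower (45.7% and 28.9%). With 9 genes, these shares show nothing particular to the members. Because RNA amounts per fraction were not measured, the zero of this ratio depends on the scaling: with total-count scaling the median of all genes moved up by 1.41, 1.10 and 0.96 at 0, 12 and 24 h, and the share of called genes that were higher went from 59.2%, 61.3% and 61.3% to 78.9%, 80.3% and 78.9%.

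Trem2 had a log2 nuclear-to-cytoplasmic ratio of 2.03 at 0 h, 3.00 at 12 h and 2.67 at 24 h, and it was above 0 under each scaling tried. Clec7a was at 3.95 at 0 h (interval 2.03 to 7.03, from 2 cytoplasmic reads). With 3 reads set for the cytoplasmic groups at 0, Clec7a was 2.43-fold higher in the nucleus at 12 h and 1.67-fold higher at 24 h. The lower ends of the log2 counting intervals, from the reads as counted, were 0.80 and 0.10. Igf1 was at −3.11, −1.87 and −1.92 and Lpl at −2.18, −1.96 and −1.75, both below 0 under each scaling. Trem2 and Clec7a were also the 2 members with over 95% of their single-transcript bases in retained-intron transcripts (95.8% and 97.2%). Lpl, below 0 like Igf1, had 65.3%, Axl 50.8%, Cd9 44.1%, Gpnmb 39.4% and Itgax 13.6%. Igf1, Tyrobp and Spp1 had 0%. The part of this in the ratios was not tested. Gpnmb was at −1.23, −0.56 and −0.47 and Cd9 at −0.91, −0.83 and −0.59, and both changed sign with total-count scaling (0.19, 0.54 and 0.48 for Gpnmb and 0.50, 0.27 and 0.37 for Cd9). Axl was at −1.77, −1.95 and −1.12, Itgax at 0.04, 0.93 and 0.97, and Tyrobp, on few reads, at −0.83, −0.87 and 1.65. The sign for Tyrobp turned with total-count scaling at 0 h and 12 h, that for Itgax with median-of-ratios scaling at 0 h (−0.22), and that for Axl at 24 h with total counts without the most abundant nuclear gene (0.20).

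**Figure D5:**
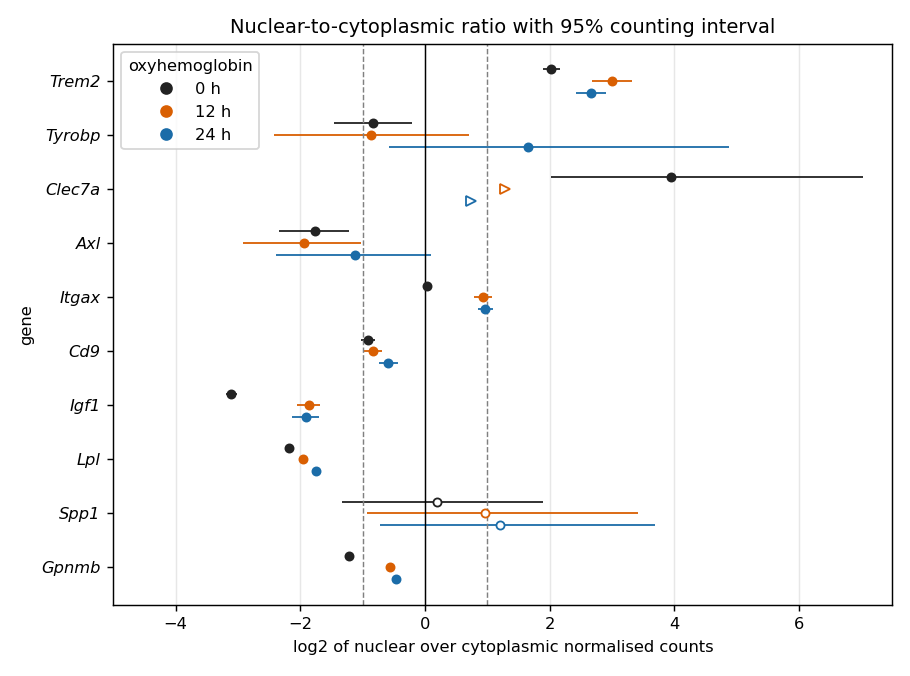
Log2 of nuclear over cytoplasmic normalised counts for each gene at 0 h (black), 12 h (orange) and 24 h (blue), with 95% counting intervals. Open points are too low to be compared, open triangles are ratios with 3 reads set for a group at 0, and dashed lines mark 2-fold. Igf1 moves from −3.11 at 0 h to −1.87 and −1.92, and Trem2 lies at 2.03 or above at each time.

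The nuclear-to-cytoplasmic ratio of Igf1 was higher after oxyhemoglobin under each scaling, by an amount that depended on the scaling. Because RNA amounts per fraction were not measured, the share of Igf1 RNA in the cytoplasm is not known. Its nuclear-to-cytoplasmic log2 ratio was 1.24 higher at 12 h than at 0 h (interval 1.05 to 1.44) and 1.19 higher at 24 h (interval 0.96 to 1.43), where the medians of all genes were 0.30 and 0.19. Of the genes compared, 90.9% at 12 h and 92.7% at 24 h were at or below Igf1. At 12 h Igf1 was the 1 member of 8 past the limit, against 10.8% of 16544 genes, and at 24 h it was 1 of 2 with Tyrobp (2.49, interval 0.22 to 4.75), against 8.81% of 16813. With 8 genes, these counts show nothing particular to the members. With total-count scaling the changes of Igf1 were 0.93 and 0.74, above 0 but under 2-fold, and the share of called genes that were higher went from 63.9% and 53.4% to 29.3% and 10.1%. The changes at 12 h and 24 h were 0.97 and 0.64 for Trem2, 0.89 and 0.93 for Itgax and 0.66 and 0.75 for Gpnmb, all under the limit and above 0 under each scaling. Those of Lpl (0.22 and 0.43) and Cd9 (0.08 and 0.33) turned below 0 with total-count scaling, and those of Axl were −0.18 and 0.65.

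The gene lists below are read against the shares of all genes given above, which at 12 h and 24 h were 7.92% and 7.88% higher and 6.64% and 5.75% lower in the nucleus, and 11.7% and 10.4% higher and 8.99% and 6.71% lower in the cytoplasm. The lists are short, so that 1 gene makes up a large share, and they were chosen with earlier results of these data known. Of 19 signalling genes next to TREM2 and TYROBP, 18 were compared in the nucleus, with 2 higher and 0 lower at 12 h and at 24 h, and 14 in the cytoplasm, with 3 higher and 1 lower at 12 h and 2 higher and 1 lower at 24 h. Their median log2 ratios were 0.25 and 0.14 in the nucleus and 0.01 and 0.02 in the cytoplasm. Syk, the kinase that TYROBP recruits, was higher in the nucleus at 12 h (log2 ratio 1.08, 70.1 to 148 CPM). Lcp2, the adaptor SLP-76, was higher in the nucleus at both times (1.35 and 1.09) and in the cytoplasm at 12 h (1.08), and Treml2, a related receptor, was higher in the nucleus at 24 h (1.28). Cd33, an inhibitory lectin of microglia, was lower in the cytoplasm at both times (−1.60 and −1.11, from 698 CPM to 230 and 324). Plcg2, the phospholipase downstream of SYK, was within 2-fold, at 0.50 and 0.59 in the nucleus and −0.25 and −0.08 in the cytoplasm.

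Among the lectin relatives and signalling genes of CLEC7A, 1 of 7 was higher and 0 were lower in the nucleus at 12 h, 0 were called at 24 h, and 2 of 7 were higher and 0 lower in the cytoplasm at each time. Clec4d, a C-type lectin of myeloid cells, was higher in the nucleus at 12 h (1.38) and in the cytoplasm at both times (1.70 and 1.00), opposite in sign to nuclear Clec7a. In the nucleus it was lower at 24 h than at 12 h (−1.17). Card9, the adaptor downstream of CLEC7A, was at 0.22 and 0.20 in the nucleus and 1.61 and 1.41 in the cytoplasm, from 1.09 CPM at 0 h to 3.31 and 2.88. Of the relatives and ligands of AXL, Mertk, a related receptor that also binds GAS6, was lower in the nucleus (−1.70) and cytoplasm (−1.49) at 12 h. It was higher again in the nucleus at 24 h than at 12 h (1.02). Its ligand gene Gas6 had at most 2.33 mean counts in any group.

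Of 13 genes that act with IGF1, 6 were compared, with 1 lower in the nucleus at 12 h, 0 at 24 h, and 2 and 1 lower in the cytoplasm, and 0 higher. Their median log2 ratios were 0.01 and 0.15 in the nucleus and −0.57 and −0.60 in the cytoplasm. Igfbp4, a secreted binding protein of IGF1, was lower in the nucleus at 12 h (−1.20) and in the cytoplasm at both times (−1.89 and −1.48, from 135 CPM to 36.4 and 48.5). Igf1r, the receptor of IGF1, was lower in the cytoplasm at 12 h (−1.39, from 393 to 150 CPM) and within 2-fold in the nucleus (−0.21 and 0.02). Of the osteopontin receptors, Itga4 was lower in the cytoplasm at both times (−1.49 and −1.21), Itgav in the cytoplasm at 24 h (−1.55), and Itgb3 was higher in the nucleus at 24 h (1.01). Of 7 receptors compared in the nucleus 0 were called at 12 h and 1 was higher at 24 h, and of 5 in the cytoplasm 1 and 2 were lower.

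Among lipase partners and lipid uptake genes, Sdc4 was higher in the nucleus at 12 h (1.05) and the lipoprotein receptor gene Lrp1 was lower in the cytoplasm at 12 h (−1.01), 1 of 6 and 1 of 4 compared, and 0 were called at 24 h. Itgb2, the β2 chain that pairs with ITGAX, was within 2-fold, at 0.58 and 0.88 in the nucleus and 0.12 and −0.09 in the cytoplasm, while Itgax was lower. Of the integrin partners, Fermt3 was higher in the nucleus at 12 h (1.11), 1 of 6 compared, and Tln1 was lower in the cytoplasm at 24 h (−1.0), 1 of 4. Of the tetraspanins and their partners, Igsf8, a partner of CD9, was higher in the nucleus at both times (1.25 and 1.13), from 2.97 CPM, 1 of 7 compared. In the cytoplasm 0 of 5 were called at 12 h and 1 was lower at 24 h, the tetraspanin gene Cd151 (−1.25), which was also lower there at 24 h than at 12 h (−1.13).

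The other disease-associated microglia genes were called in both directions. Of 34 listed, 32 were compared in the nucleus, with 4 higher and 5 lower at 12 h and 5 higher and 3 lower at 24 h, and 31 in the cytoplasm, with 4 higher and 5 lower at 12 h and 3 higher and 2 lower at 24 h. Their medians were 0.17 and 0.00 in the nucleus and −0.29 and −0.33 in the cytoplasm. The chemokine gene Ccl3 was higher in every ratio to 0 h, at 2.06 and 1.96 in the nucleus and 3.24 and 2.98 in the cytoplasm (776 to 7345 and 6115 CPM). Atp6v0d2, a subunit of the vacuolar proton pump, was lower in each, at −1.79 and −1.74 and at −2.26 and −2.27 (423 to 88.5 and 87.4 CPM). Ctsz, a lysosomal protease gene, was higher in the nucleus at 12 h (1.46), and Apoe, an apolipoprotein gene, was lower in the nucleus at both times (−1.13 and −1.66, 18.4 to 5.79 CPM at 24 h). Cd68, of a lysosomal membrane protein, was higher in the cytoplasm (3.49 and 3.67, from 2.17 CPM), with 16.8% of its exonic bases in a single transcript.

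Transcription factors of the MiT/TFE family and of microglia were split as well, with 2 of 10 higher and 2 lower in the nucleus at 12 h, and 1 and 1 at 24 h. Mitf, known to activate Gpnmb, was within 2-fold at −0.87 and −0.76 in the nucleus and −0.99 and −0.85 in the cytoplasm. Tfeb was lower in the nucleus at 12 h (−1.23) and Mef2c in the nucleus at both times (−1.65 and −1.29). Cebpb, a factor of inflammatory gene expression, was higher throughout (1.54 and 2.16 in the nucleus, 1.75 and 1.42 in the cytoplasm). Spi1, the gene of PU.1, was higher in the nucleus at 12 h (1.14). Exons of Ctsz, Lcp2, Itga4, Fermt3, Tln1, Igsf8 and Cebpb overlap those of another gene, so that part of their reads is uncertain.

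Over the 6 groups, the 3 protein-coding genes with the profile nearest to Igf1 among 8383 candidates were Gpr183, Rgs2 and Asb10. Likeness was the root mean square difference of log2(CPM + 0.5), centred within each fraction, and was 0.32 for Gpr183 and 0.33 for Rgs2 and Asb10. Gpr183, an oxysterol receptor of immune cells, had log2 ratios of −1.66 and −1.61 in the nucleus and −3.18 and −3.03 in the cytoplasm. Rgs2, a regulator of G-protein signalling, was at −2.05 and −2.05 and at −2.36 and −2.43, and Asb10 was at −2.23 and −2.54 and at −3.04 and −2.67. Igf1 itself was at −1.57 and −2.24 and at −2.69 and −3.36. The 3 genes were picked for likeness over these same groups, so that their shared direction with Igf1 follows from the choice. Ranking by Pearson correlation over the same 6 groups gave 0 of these 3 genes.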

How the data were processed

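The submitters' processing notes name HISAT2 2.2.0, featureCounts and DESeq2 as tools and GRCm38 as the genome build. The sources used here do not give the strand setting or annotation release. Per the labels' protocols, trypsin-detached cells were opened in hypotonic NP-40 buffer, the nuclei were spun down and washed, and libraries were made by tagmentation. The deposited count table held 1 column per group. Between 28.1% and 34.9% of its values were not whole, but each value times 3 was whole within 0.001, so the deposited values were read as means of the counts of 3 libraries (estimated counts in the sense that they need not be whole). With means only, no count test over libraries could be run. The deposited TPM values used as the length of a gene the summed bases of its transcripts for 7832 of 8032 genes with several transcripts (97.5%). Of the sample columns, 0 were left unused.

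Mean counts times 3 were taken as reads, and TMM factors came from edgeR 4.0.16 in R 4.3.3, trimming 30% of log ratios and 5% of mean levels. Nuclear and cytoplasmic groups were scaled separately over time and all 6 together for nuclear-to-cytoplasmic ratios. The other steps used Python 3.11.15, numpy 2.4.6, pandas 2.3.3 and scipy 1.17.1. Intervals were exact (Clopper-Pearson, 95%), with a normal approximation for changes of a nuclear-to-cytoplasmic ratio. A group at 0 was set to 3 reads. Its ratio does not allow for counting error in the other group, and it had to reach 2-fold for a call. The script was tested on simulated data with counting error only, which checks the calculation and not the calls under differences between libraries. Annotation came from GENCODE M21, which held 55227 of the 55487 identifiers, and windows came from RefSeq, which held 8 of the 10 members.

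The members and gene lists were chosen with earlier results of these data known. Besides the members, up to 3 genes per list and time comparison were named, taken by size of the ratio among called genes averaging at least 5 CPM, as were direct partners of a member and the 3 genes most like Igf1. P2ry12, Cx3cr1, Kdr, Gad1, Spi1 and Cd151 were named after their values were seen. The number of transcription factors called in the cytoplasm is not reported here.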

Additional observations from a re-analysis of the deposited data

How the results depend on the processing

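No paired analysis was possible because the deposited columns hold 1 mean per group, and for the same reason no library could be left out. Over time, each member called lower against 0 h stayed below 0 under all alternatives run. Total-count scaling, with or without the most abundant nuclear gene, gave these counts of members: 1 lower in the cytoplasm from 12 h to 24 h (2 with TMM), 1, 0 and 0 lower in the nucleus than in the cytoplasm at 0, 12 and 24 h (4, 3 and 2), 4 higher there at 24 h (1), and 0 with a changed nuclear-to-cytoplasmic ratio at 12 h and 24 h (1 and 2). It reversed the nuclear-to-cytoplasmic ratio of Gpnmb at 0 h to 0.19, or 0.48 without that gene. Total counts also put the nuclear-to-cytoplasmic ratio of Itgax past the limit at 0 h and 12 h (1.45 and 2.03). Nuclear Lpl at 12 h (−1.13), nuclear Itgax at 24 h (−1.07) and cytoplasmic Axl at 12 h (−1.01) then passed the limit as lower than at 0 h. Not every count that changed under an alternative is listed here. Median-of-ratios scaling left 1 member higher in the nucleus at 12 h (2). A 1.5-fold limit gave 1 member lower in the nucleus from 12 h to 24 h (0), 3 higher in the nucleus than in the cytoplasm at 24 h (1), and 4 and 5 with a higher nuclear-to-cytoplasmic ratio at 12 h and 24 h. With log2(TPM + 1), 0 members were lower in the cytoplasm from 12 h to 24 h, 2, 0 and 1 were lower in the nucleus than in the cytoplasm at 0, 12 and 24 h, and 2 were higher there at 24 h. The cause of these differences was not tested. The Gpnmb level in the untreated cytoplasm was 502 CPM per kilobase of exonic bases, 1072 as deposited TPM and 676 per kilobase of single-transcript bases, a length chosen after seeing the data. From 12 h to 24 h, 60.7% of called nuclear genes and 60.6% of called cytoplasmic genes were higher, against 44.2% and 73.4% with total-count scaling and 9.31% and 68.7% with TPM. Called ratios of Axl and of nuclear Clec7a were under 2-fold as log2(TPM + 1), since 1 TPM was added to low values. Of 394 member ratios recomputed with another scaling or TPM, 209 lay within the counting interval of the TMM ratio and 185 outside it, and 43 changed sign, 2 of which (Gpnmb, above) had been called. Depth limits Spp1, Clec7a, Tyrobp and Axl.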
